A study of Homo sapiens with 10 samples.

Results

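The genes examined were 10 components of Toll-like receptor signalling through the adaptor MYD88: the receptors TLR2 and TLR4, the adaptors MYD88 and TIRAP, the kinases IRAK1 and IRAK4, the ubiquitin ligase TRAF6, the transcription factor NFKB1 and the inhibitors NFKBIA and TOLLIP. They were chosen by name, and every probe of the array that carries a RefSeq accession of one of these genes was taken, which gave 15 probes out of 42405, for 10 genes of 35267 gene or probe names. Of these probes 10 passed the filter on dim signals (called well above background in at least 3 arrays of one group), so that 8 of the 10 genes were tested. TLR4 and TIRAP had no probe that passed.

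MEG-01 is an established human megakaryoblastic leukemia line, used as a stand-in for megakaryocytes. Cells were nucleofected with 200 nM of a double-stranded precursor of miR-1225-3p (5 arrays) or with 200 nM of a scrambled negative control precursor (5 arrays), and total RNA was collected after 24 hours. Both groups therefore share the cell line, the nucleofection, the dose and the time, and neither is an untransfected culture. One label of the control samples reads as no treatment, but their titles and the methods describe the control precursor. All samples came from 1 cell line, which limits what they represent, and no ligand of a Toll-like receptor was added to either group as far as the protocols say.

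Toll-like receptors recognise microbial products at the cell surface or in endosomes and recruit MYD88 through a shared TIR domain, with TIRAP bridging MYD88 to TLR2 and TLR4. MYD88 then gathers IRAK4, IRAK1 and TRAF6, and TRAF6 activates the TAK1 and IKK kinases, which release NF-κB from its IκB inhibitors. Megakaryocytes and platelets carry several of these receptors, and NFKBIA, which encodes an IκB, is itself a classical NF-κB target.

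The microRNA that was raised is printed here because its seed, bases 2 to 8, is the part that pairs with target mRNAs. The sequence is RefSeq's for GRCh38.p14, chr16:2090195-2090216 on the minus strand, inside the gene PKD1, with the seed in capitals. Of 2370 mature human microRNAs in that table, 1 has this seed, miR-1225-3p itself.
miR-1225-3p: uGAGCCCCugugccgcccccag

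Promoters of 3 genes are shown because they are those of the members that hold a motif of a signal-responsive promoter among the pair searched. Each is the stretch of 100 bases before the transcription start, from RefSeq's GRCh38.p14 table, printed 5′ to 3′ on the gene's own strand: chr3:38138561-38138660 on the plus strand for MYD88, chr4:102501259-102501358 on the plus strand for NFKB1 and chr14:35404750-35404849 on the minus strand for NFKBIA. Capitals mark matches to the κB consensus, the motif to which NF-κB dimers bind, in NFKB1 and NFKBIA, and to the doublet of GAAA separated by any 2 bases, a motif of interferon-responsive promoters, in MYD88.
MYD88: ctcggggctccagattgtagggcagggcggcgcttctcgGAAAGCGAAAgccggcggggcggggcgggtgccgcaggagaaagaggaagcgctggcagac
NFKB1: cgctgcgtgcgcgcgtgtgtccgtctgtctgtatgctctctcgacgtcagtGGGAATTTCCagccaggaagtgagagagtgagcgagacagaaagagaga
NFKBIA: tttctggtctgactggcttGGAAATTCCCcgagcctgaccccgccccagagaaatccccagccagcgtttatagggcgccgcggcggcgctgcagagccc

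Both motifs were searched on both strands of the whole promoter windows, from 250 bases before to 50 after the start, of which the members had 11 in the table. The κB consensus was found in 2 of these 11, at 49 to 40 bases before the start of NFKB1 and at 81 to 72 bases before that of NFKBIA. It was held by 2075 of all 35116 promoters of the same length (5.91%). The GAAA doublet was found in 1 of the 11, at 61 to 52 bases before the start of MYD88, and in 1255 of all 35116 (3.57%). These matches describe letters only. Among the genes tested on the arrays, 355 of the 868 with a κB match in the table's promoter were called (40.9%, 153 higher and 202 lower, median log2 fold change -0.06), beside 3622 of 9636 genes with any promoter in the table (37.6%, median -0.03), so that a κB match in the window went with no common direction on these arrays.

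Between 41.95% and 61.18% of the spots of an array were called well above background, none was saturated, and the number of arrays limits the precision. The first principal component of the normalized log2 signals held 69.6% of the variance, and on it miR-1225-3p replicate 5 (56.7) lay among the scrambled arrays (48.7 to 79.9) and apart from miR-1225-3p replicates 1 to 4 (-133.4 to -53.0). By this position the array goes against its label, and whether its cells carried the precursor as labelled was not tested, so every mean over 5 miR-1225-3p arrays includes an array whose label is in doubt. Its part in the results was not tested either, and values without it stand beside the members and the named pathway genes that were called. The arrays lay on 2 slides, each holding both groups. Of 9 tested megakaryocyte and platelet markers, 3 were called at a limma adjusted p under 0.05 (33.3%, beside 35.0% of all genes). These were NFE2, FLI1 and ITGA2B, all lower. The summed signal of the 9 on the log2 scale was 12.8 to 13.0 on the miR-1225-3p arrays and 13.3 to 13.4 on the scrambled arrays. Linear signals were summed, so NFE2, the brightest (mean log2 signal 12.39 and 12.82), made up most of it. GP6 and PPBP had higher means after miR-1225-3p and the rest lower means. VWF, PF4 and SELP, which mark mature platelets, had no probe that passed the filter. Of 4 tested monocyte markers, MPO was called higher (25.0% of the list, beside the same 35.0%), and the summed log2 signal was 8.72 to 9.54 and 8.48 to 8.86. None of 6 erythroid markers was called, and of 3 lymphoid markers CD3E was called higher (33.3%), by 1.96 on the log2 scale. CD3E was dim (mean log2 signal 5.35 and 3.39), well above background on 3 miR-1225-3p arrays and 1 scrambled array. It thus passed the filter only through the group where it was higher, which limits this value. The other lymphoid markers were brighter, had lower means after miR-1225-3p and were not called. CD79A gave -1.47 (limma adjusted p = 0.0626) and CD3D -0.13 (0.616). The summed log2 signal of the 3 lymphoid markers was 11.9 to 12.6 on the miR-1225-3p arrays and 12.3 to 13.4 on the scrambled arrays. In bulk RNA, fewer cells of a type and less RNA per cell cannot be told apart, and the part of these marker lists in the results was not tested.

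Of the 8 members tested, 5 changed. The adaptor MYD88 and the kinase IRAK1 were lower after miR-1225-3p, both by more than 2-fold, whereas TRAF6, NFKB1 and NFKBIA were higher, by 1.87-fold, 1.69-fold and 1.59-fold. TLR2 and TOLLIP did not pass the test, and IRAK4 had nearly equal means. Over all 17379 genes tested, limma called 35.0% at an adjusted p under 0.05 (17.0% higher and 18.1% lower), so that a call is common in this comparison. The median log2 fold change was 0.54 over the 8 members and -0.06 over all genes. The groups did not overlap for 2 of the 8 members, TRAF6 and NFKB1, both higher, beside 12.7% of all genes (7.98% higher and 4.74% lower). Without miR-1225-3p replicate 5 they did not overlap for 6 of the 8, beside 46.0% of all genes.

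**Figure D1:**
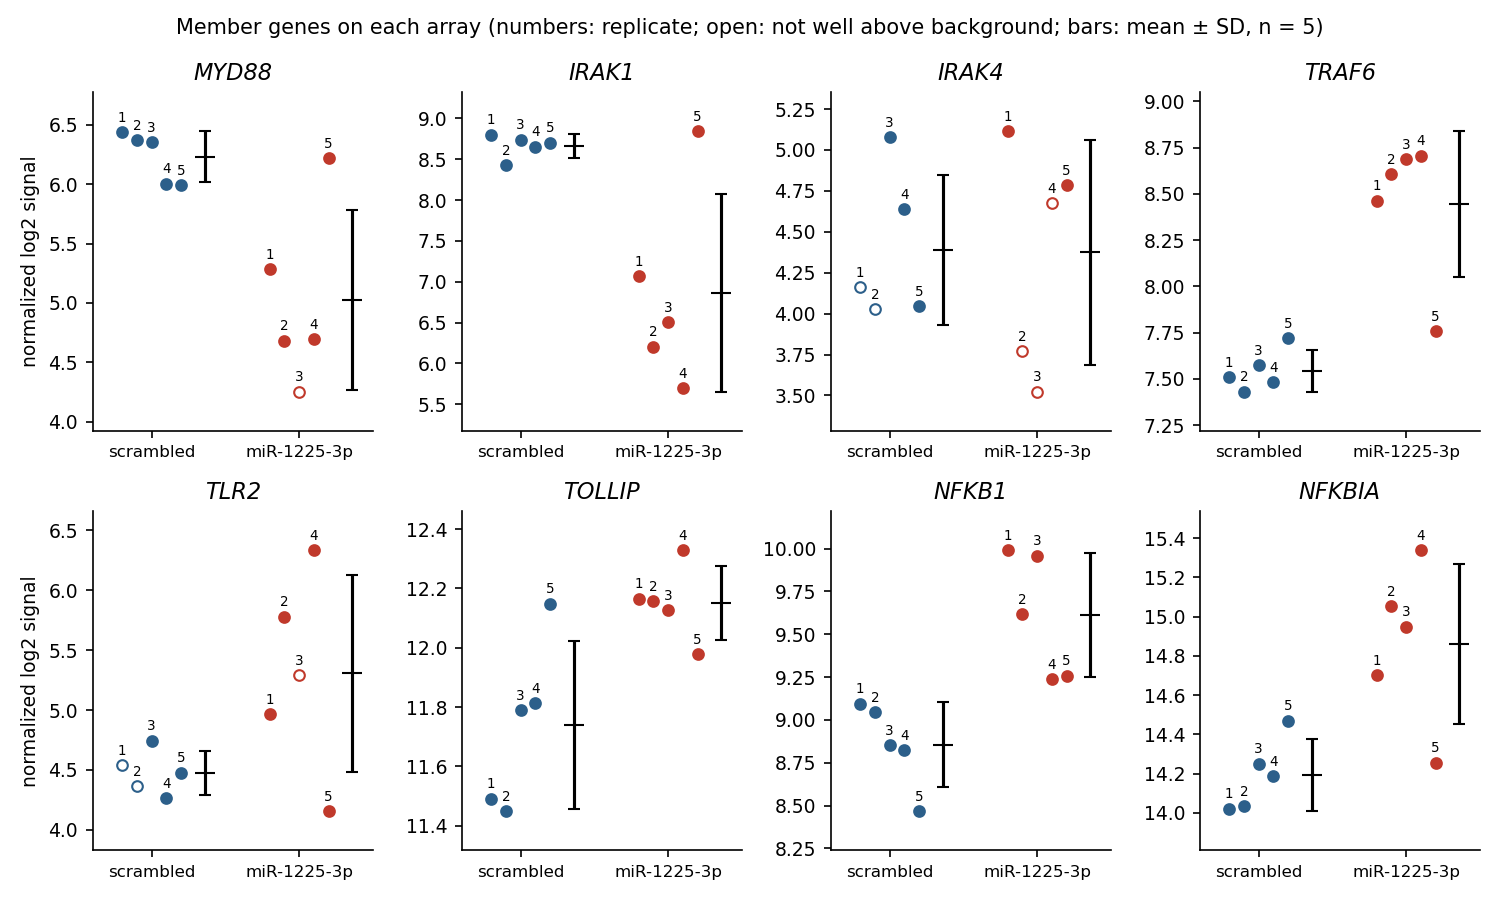
Normalized log2 signal of the 8 tested members on each array (vertical axis, a separate scale per gene) for scrambled (blue) and miR-1225-3p (red) arrays, with replicate numbers, open points where the probe was not well above background, and bars for mean ± SD of 5 arrays. MYD88 and IRAK1 are lower on miR-1225-3p replicates 1 to 4 than on every scrambled array while replicate 5 lies with or above them, and TRAF6 and NFKB1 show no overlap of the groups.

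MYD88, the adaptor that most Toll-like receptors and the IL-1 receptor family use, has 1 probe. Its normalized log2 signal was 5.28, 4.68, 4.25, 4.69 and 6.22 on miR-1225-3p replicates 1 to 5 and 6.44, 6.37, 6.35, 6.01 and 5.99 on scrambled replicates 1 to 5. Replicates 1 to 4 of miR-1225-3p were below every scrambled array, and replicate 5 lay inside the scrambled range, so that the groups overlapped. The means were 5.03 ± 0.761 and 6.23 ± 0.216 (SD, n = 5 each), a log2 fold change of -1.21 (SE 0.327, 95% interval -1.93 to -0.48, limma adjusted p = 0.0234), or 2.31-fold lower. The two-sided exact permutation test over all splits of the arrays into groups of 5 gave p = 0.0238, where the smallest p it allows is 0.00794.

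The size of the MYD88 change depended on how its dim signal was handled. The probe was called above background on every scrambled array and, of the miR-1225-3p arrays, on all but replicate 3. With a normexp background correction and an offset of 50 the log2 fold change was -0.34 (limma adjusted p = 0.0462), the same direction at a smaller size. Without miR-1225-3p replicate 5 it was -1.50 (limma adjusted p = 0.000388). The adjusted p was between 0.0504 and 0.0610 when any 1 of miR-1225-3p replicates 2, 3 and 4 or scrambled replicates 1, 2 and 3 was left out, and passed when 1 of the other 4 arrays was.

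TIRAP, which carries MYD88 to TLR2 and TLR4 at the membrane, has 3 probes, none of which passed the filter. One of them was well above background on 1 array, scrambled replicate 5, at a log2 signal of 5.64, and at most 3.30 on the other arrays. The remaining probes were not well above background on any array. No fold is given for TIRAP. Of the other adaptors listed, TICAM1, which serves TLR3 and TLR4, had a log2 fold change of 0.03 (limma adjusted p = 0.916), and it was the only one of 4 listed to be tested.

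The surface receptor TLR2, which binds bacterial lipoproteins together with TLR1 or TLR6, gave 4.97, 5.78, 5.29, 6.33 and 4.16 on miR-1225-3p replicates 1 to 5, and 4.54, 4.36, 4.75, 4.26 and 4.48 on the scrambled replicates, in normalized log2 signal. Replicates 1 to 4 of miR-1225-3p were above every scrambled array and replicate 5 was below every one. The means were 5.31 ± 0.824 and 4.48 ± 0.184 (SD, n = 5 each), with a log2 fold change of 0.83 (SE 0.347, 95% interval 0.06 to 1.60) that did not pass the test (limma adjusted p = 0.0826, exact permutation p = 0.0635). Without miR-1225-3p replicate 5 it was 1.12 and passed (limma adjusted p = 0.00541). With the normexp correction it was 0.22. The probe was well above background on 4 miR-1225-3p and 3 scrambled arrays, and its 10 spots on an array had a median SD of 0.30 on the log2 scale, so that TLR2 was measured near the floor of the arrays.

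TLR4, the receptor for lipopolysaccharide, has 2 probes, and neither passed the filter. One was well above background on scrambled replicate 5 (log2 signal 5.29) and not on the other 9 arrays, and the other on none, so that no fold is given. The partners of TLR2 gave a log2 fold change of 0.06 for TLR1 (limma adjusted p = 0.898) and 1.01 for TLR6 (limma adjusted p = 0.0771), and neither passed the test. Both were dim, well above background on 4 miR-1225-3p and 3 scrambled arrays for TLR1 and on 3 and 2 for TLR6. TLR6 thus passed the filter only through the miR-1225-3p arrays, and with normexp its log2 fold change was 0.19. TLR3, TLR7, TLR8, TLR9 and TLR10 had no probe that passed the filter.

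**Figure D2:**
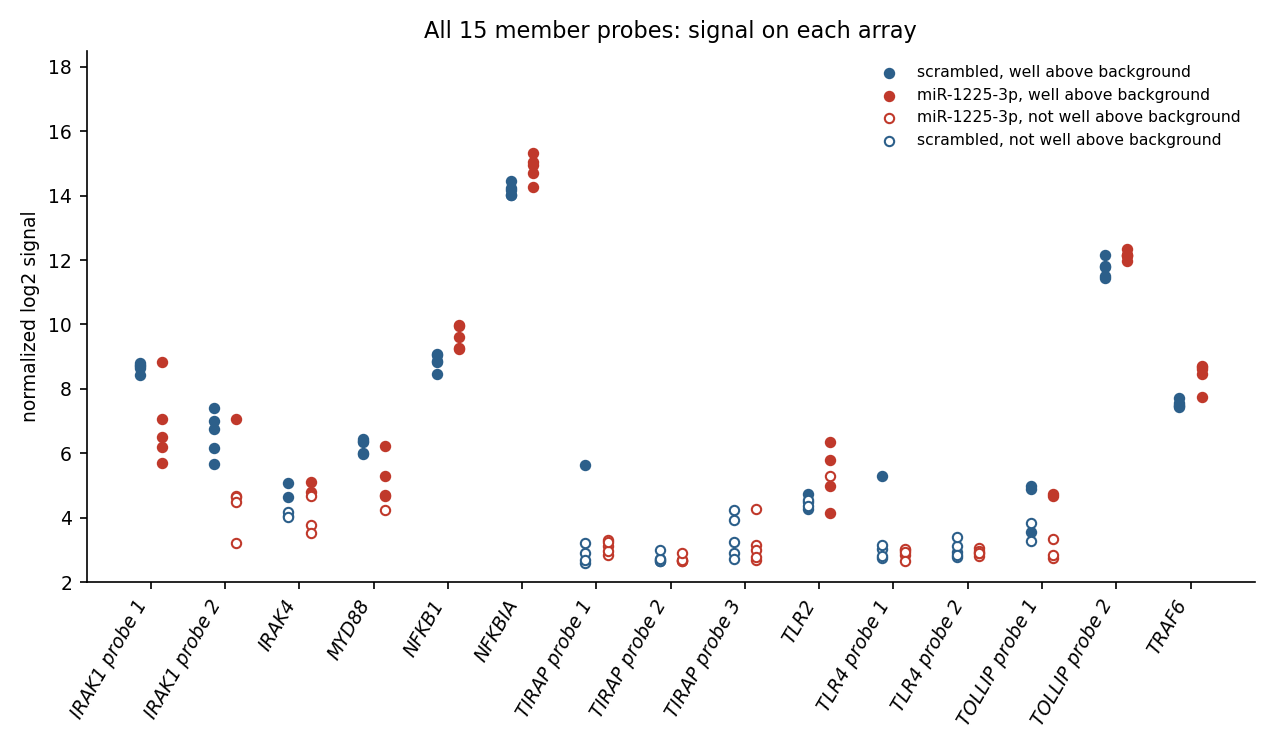
Normalized log2 signal (vertical axis) of all 15 member probes (horizontal axis) on each scrambled (blue) and miR-1225-3p (red) array, with open points where the probe was not well above background. Levels can be compared between groups within a probe and not between probes; the TIRAP and TLR4 probes lie near the bottom, with 1 scrambled array above background for one probe of each.

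IRAK1, the kinase that MYD88 and IRAK4 activate and that hands the signal to TRAF6, has 2 probes. The brighter gave log2 signals of 7.07, 6.21, 6.51, 5.70 and 8.84 on miR-1225-3p replicates 1 to 5, and 8.80, 8.43, 8.74, 8.65 and 8.70 on scrambled replicates 1 to 5. The scrambled arrays lay close together, miR-1225-3p replicates 1 to 4 were all below them, and replicate 5 was above all of them. The means were 6.86 ± 1.21 and 8.66 ± 0.144 (SD, n = 5 each), a log2 fold change of -1.80 (SE 0.491, 95% interval -2.89 to -0.71, limma adjusted p = 0.0237, exact permutation p = 0.0476), or 3.48-fold lower.

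The other IRAK1 probe gave 4.68, 4.64, 3.21, 4.48 and 7.07 in log2 signal on miR-1225-3p replicates 1 to 5 and 5.66, 6.16, 7.00, 6.74 and 7.41 on the scrambled replicates. It was well above background on all scrambled arrays but only on replicates 1 and 5 of miR-1225-3p, and again replicate 5 lay among the scrambled arrays while the other 4 were below. Its log2 fold change was -1.78 (limma adjusted p = 0.0484 over all 20648 kept probes), close to that of the brighter probe. This dimmer probe passed the filter only through the scrambled arrays, where it was higher, which limits this value. For the brighter probe the normexp correction gave -1.20 (limma adjusted p = 0.0259), and leaving out miR-1225-3p replicate 5 gave -2.29 (limma adjusted p = 0.000126). The call was lost, at adjusted p between 0.0506 and 0.0621, on leaving out any 1 of miR-1225-3p replicates 2 and 3 and scrambled replicates 1 and 4.

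IRAK4, the first kinase of the MYD88 complex, gave log2 signals of 5.12, 3.77, 3.52, 4.68 and 4.78 on miR-1225-3p replicates 1 to 5 and 4.16, 4.03, 5.08, 4.64 and 4.05 on scrambled replicates 1 to 5. The groups lay across each other, and the probe was well above background on 2 miR-1225-3p and 3 scrambled arrays. The log2 fold change was -0.02 (SE 0.340, 95% interval -0.77 to 0.74, limma adjusted p = 0.969, exact permutation p = 0.976). The interval still holds changes as large as that of NFKBIA in either direction, so that a change of that size is not excluded here.

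TRAF6, the ubiquitin ligase that joins the IRAK complex to TAK1, gave log2 signals of 8.46, 8.61, 8.69, 8.71 and 7.76 on miR-1225-3p replicates 1 to 5 and 7.51, 7.43, 7.57, 7.48 and 7.72 on the scrambled replicates. All miR-1225-3p arrays were above all scrambled arrays, and the lowest of them, replicate 5, lay just above the highest scrambled array. The means were 8.44 ± 0.395 and 7.54 ± 0.112 (SD, n = 5 each), a log2 fold change of 0.90 (SE 0.189, 95% interval 0.48 to 1.32, limma adjusted p = 0.0142). The exact permutation test gave p = 0.00794, the smallest it allows. TRAF6 was the only member to pass the threshold in each of the 10 fits that left out 1 array, and it gave 0.93 within either slide (limma adjusted p = 0.0222 on slide 1 and 0.494 on slide 2).

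NFKB1, which encodes the p105 precursor of the NF-κB subunit p50, gave log2 signals of 9.99, 9.62, 9.96, 9.24 and 9.26 on miR-1225-3p replicates 1 to 5 and 9.09, 9.05, 8.85, 8.82 and 8.47 on the scrambled replicates. The groups did not overlap, and the gap between the lowest miR-1225-3p array and the highest scrambled array was small beside the spread of either group. The means were 9.61 ± 0.364 and 8.86 ± 0.247 (SD, n = 5 each), a log2 fold change of 0.76 (SE 0.199, 95% interval 0.31 to 1.20, limma adjusted p = 0.0217, exact permutation p = 0.00794). Its 10 spots on an array had a median SD of 0.066 in log2 signal. NFKB1 gave 0.84 when miR-1225-3p replicate 5 was left out (limma adjusted p = 0.00529). The call was lost without miR-1225-3p replicate 2 (limma adjusted p = 0.0545) or replicate 3 (0.0560).

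NFKBIA, the gene of the inhibitor IκBα, gave log2 signals of 14.70, 15.05, 14.95, 15.34 and 14.26 on miR-1225-3p replicates 1 to 5 and 14.02, 14.03, 14.25, 14.19 and 14.47 on the scrambled replicates. Replicates 1 to 4 of miR-1225-3p were above every scrambled array, and replicate 5 was below scrambled replicate 5. The means were 14.86 ± 0.407 and 14.19 ± 0.183 (SD, n = 5 each), a log2 fold change of 0.67 (SE 0.201, 95% interval 0.22 to 1.11, limma adjusted p = 0.0312, exact permutation p = 0.0159). Scaling each array to its 75th percentile in place of cyclic loess gave 1.31, and leaving out miR-1225-3p replicate 5 gave 0.82 (limma adjusted p = 0.00201). The adjusted p passed 0.05 when 1 array was left out only for miR-1225-3p replicates 1 and 5 and scrambled replicate 5, and was otherwise between 0.0580 and 0.0769. Its 10 spots on an array had a median SD of 0.046 in log2 signal, so that the spread between arrays far exceeded that between spots.

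TOLLIP, which binds IRAK1 and dampens signalling from these receptors, has 2 kept probes that gave opposite signs. The bright probe gave log2 signals of 12.17, 12.16, 12.13, 12.33 and 11.98 on miR-1225-3p replicates 1 to 5 and 11.49, 11.45, 11.79, 11.81 and 12.15 on the scrambled replicates. Scrambled replicate 5 lay within the miR-1225-3p range and the other scrambled arrays below it. The log2 fold change was 0.41 (SE 0.156, 95% interval 0.07 to 0.76) and did not pass the test (limma adjusted p = 0.0609, exact permutation p = 0.0238), though scaling to the 75th percentile gave 0.93 (limma adjusted p = 0.0156), and leaving out scrambled replicate 5 gave 0.52 (0.0334) and miR-1225-3p replicate 5 0.46 (0.0325). The dim probe gave -0.45 (limma adjusted p = 0.487 over all kept probes) and was well above background on 2 miR-1225-3p and 3 scrambled arrays. It thus passed the filter only through the scrambled arrays, where its mean was higher, which limits what its sign can tell.

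**Figure D3:**
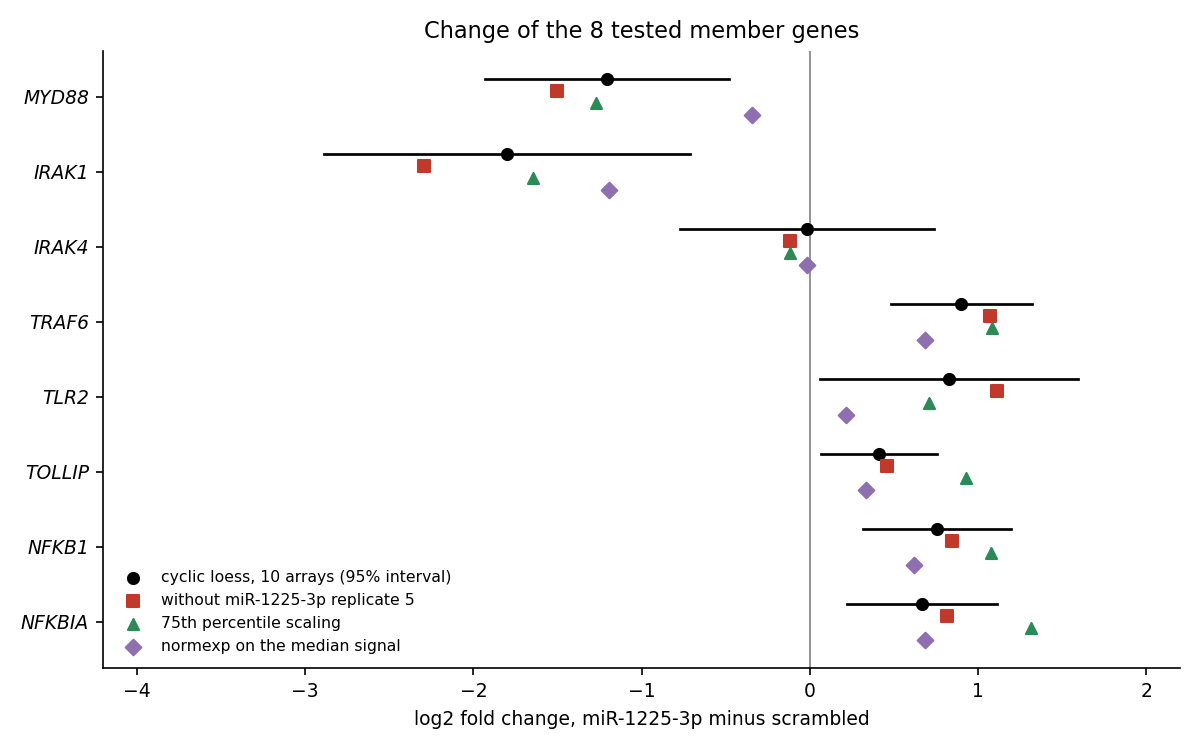
Log2 fold change of each tested member (horizontal axis, miR-1225-3p minus scrambled) after cyclic loess over 10 arrays with its 95% interval (black), without miR-1225-3p replicate 5 (red), after 75th percentile scaling (green) and after a normexp correction (violet). All markers for MYD88 and IRAK1 lie below 0 and all markers for TRAF6, TLR2, TOLLIP, NFKB1 and NFKBIA above it, while the MYD88 value shrinks to -0.34 with normexp.

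The 5 calls were not held by every setting. Without normalization between arrays none of the 8 members passed, in a fit that called 7.28% of all genes. In that fit 3 members had an unadjusted p under 0.05 from limma. MYD88 was -1.70 (limma adjusted p = 0.0725) and IRAK1 -2.07 (0.0536). Without miR-1225-3p replicate 5, 7 members passed, 5 higher and 2 lower, in a fit that called 55.4% of all genes. IRAK4 at -0.12 did not pass. Within slide 1 (2 miR-1225-3p and 3 scrambled arrays) MYD88 was -1.28, IRAK1 -2.11, TRAF6 0.93, NFKB1 1.00 and NFKBIA 0.63 in log2 fold change. All but NFKBIA (limma adjusted p = 0.0895) passed, in a fit that called 25.9% of all genes. Within slide 2 (3 and 2 arrays, including miR-1225-3p replicate 5) the same 5 members gave -1.13, -1.52, 0.93, 0.55 and 0.74. None of them passed, the lowest limma adjusted p being 0.494.

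Over the 10 arrays, the signal of IRAK1 followed that of MYD88 most closely among the members (Pearson r = 0.94), while TRAF6 (-0.96), NFKBIA (-0.93), TLR2 (-0.82), TOLLIP (-0.76) and NFKB1 (-0.70) ran opposite to it and IRAK4 had r = 0.37. These values describe arrays that share 2 groups, so the difference between the groups enters every one of them. Among 17302 genes of the fit compared, SPRYD3 (r = 0.989), RPN1 (0.987) and SERF2 (0.987) had the pattern most like that of MYD88 over the same 10 arrays.

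Beyond the members, 78 further genes of the pathway were listed by role, of which 76 had a probe and 64 were tested. Of these 30 were called (46.9%, beside 35.0% of all genes), 13 higher and 17 lower, with a median log2 fold change of 0.01, and the groups did not overlap for 17 of the 64, beside 12.7% of all genes. With 75th percentile scaling the split was 19 higher and 11 lower, and with quantile normalization 15 and 13, so that the balance of directions over the list moved with the scaling. All 30 kept their direction under both scalings and without miR-1225-3p replicate 5, except TNFAIP3, which turned to 0.08 with the 75th percentile. Without that array all 30 were still called, in a fit that called 55.4% of all genes. With the slide as a block 25 were, in a fit that called 30.4%. The list was thus mixed in direction, like the members.

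**Figure D4:**
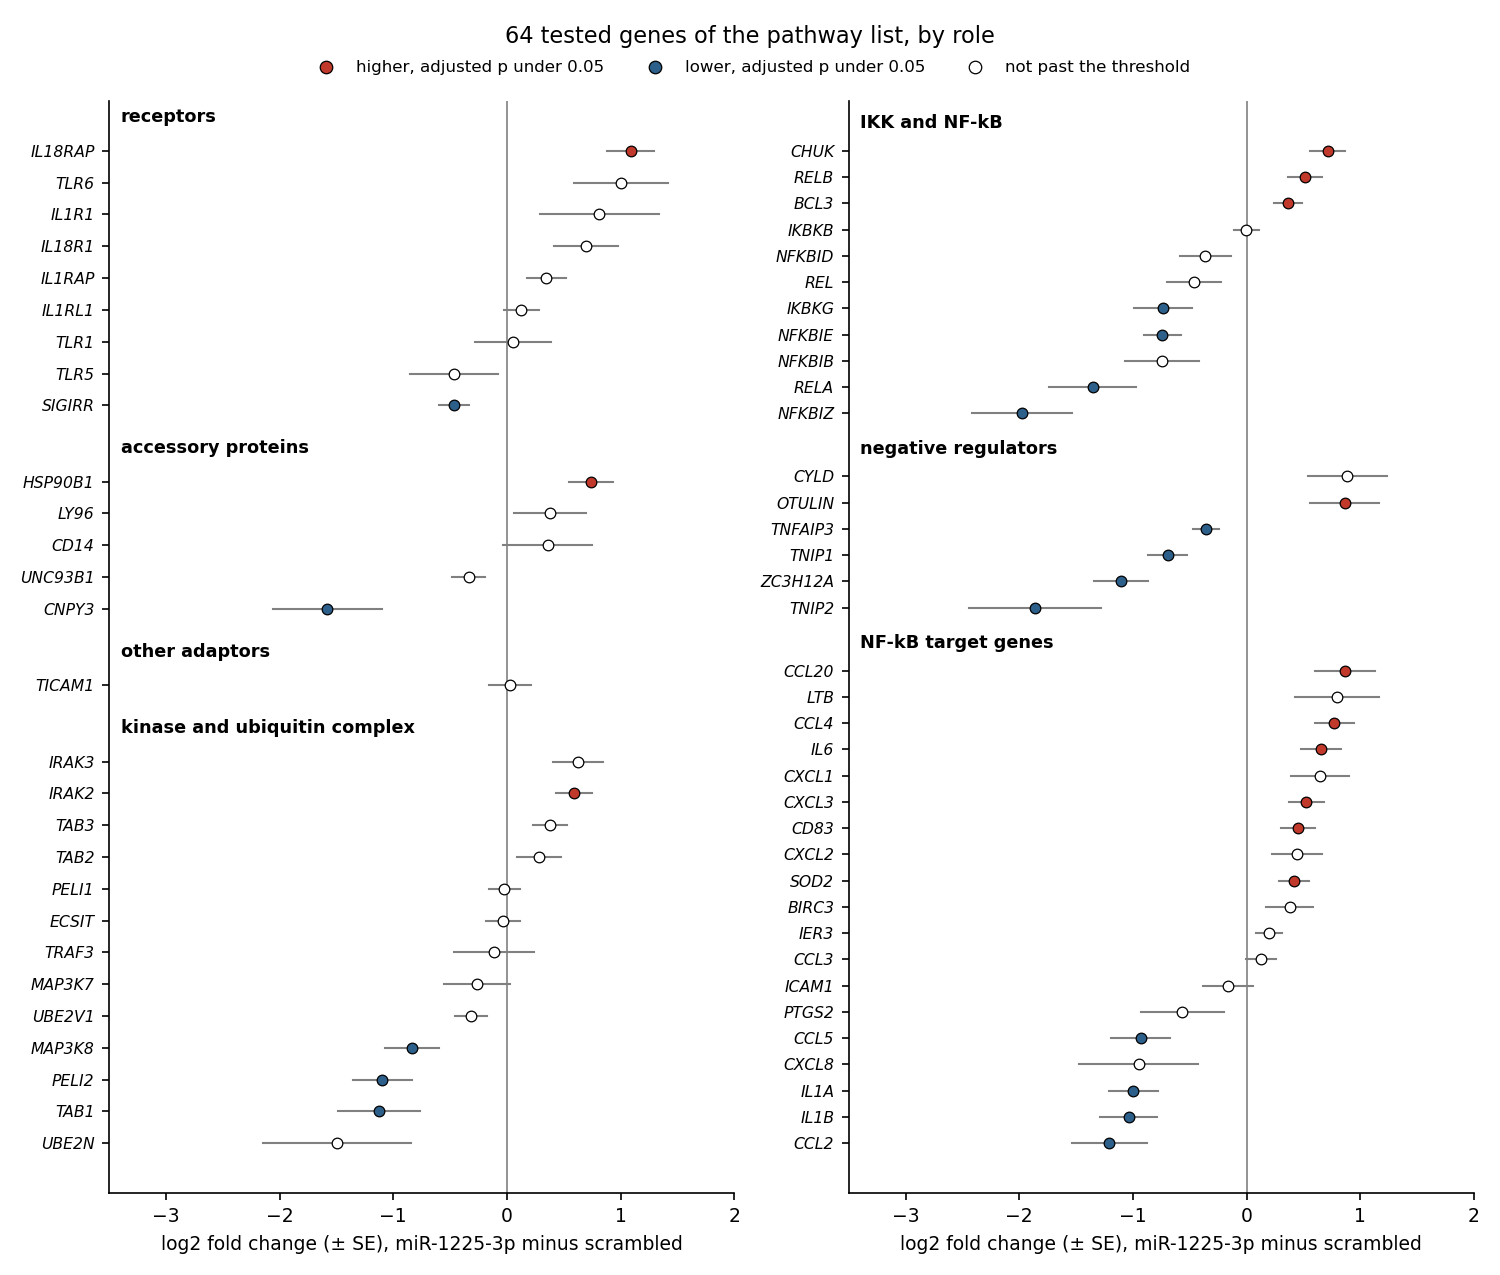
Log2 fold change (horizontal axis, miR-1225-3p minus scrambled, ± SE) of the 64 tested pathway genes (rows) by role, filled red or blue where higher or lower at a limma adjusted p under 0.05 and white otherwise. Each role with called genes holds both directions, and 4 of the 5 called negative regulators are lower.

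Of 9 receptors tested, 1 rose and 1 fell (22.2% called, beside 35.0% of all genes). IL18RAP, a chain of the IL-18 receptor, which also signals through MYD88, rose by 1.09 on the log2 scale (SE 0.209, limma adjusted p = 0.0138), and its other kept probe gave 1.37. SIGIRR, an inhibitory member of the IL-1 receptor family, fell by 0.47 (limma adjusted p = 0.0260), and with 75th percentile scaling it was -0.06 and not called, nor was it called with quantile normalization (limma adjusted p = 0.0580). Of 5 accessory proteins tested, 1 rose and 1 fell (40.0% called). HSP90B1, a chaperone that folds Toll-like receptors, gave 0.74 (limma adjusted p = 0.0214) although its other kept probe gave -0.39, and 75th percentile scaling raised it to 1.44. CNPY3, its co-chaperone for these receptors, fell by 1.58 (limma adjusted p = 0.0317) and was dim, above background on 4 arrays with miR-1225-3p. With normexp CNPY3 was -0.86 and not called (limma adjusted p = 0.0533), and IL18RAP was 0.66 and called. Log2 fold changes with miR-1225-3p replicate 5 left out were 1.21 for IL18RAP, -0.53 for SIGIRR, 0.90 for HSP90B1 and -2.02 for CNPY3.

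Of 13 tested genes of the kinase and ubiquitin complex, 1 rose and 3 fell (30.8% called, beside 35.0% of all genes, median log2 fold change -0.12). IRAK2, a further IRAK kinase, rose by 0.59 on the log2 scale (SE 0.159, limma adjusted p = 0.0232), whereas IRAK3, which restrains the complex, gave 0.63 and did not pass (limma adjusted p = 0.0508). Among the IRAK family, IRAK1 was therefore the only called gene that was lower. TAB1, a partner of the kinase TAK1, fell by 1.13 (limma adjusted p = 0.0358), but was dim, above background on 1 array with miR-1225-3p and 3 with the scrambled precursor. It thus passed the filter only through the scrambled arrays, where it was higher, which limits this call. PELI2, an IRAK-binding ubiquitin ligase, fell by 1.10 (SE 0.258, limma adjusted p = 0.0167), and MAP3K8, a kinase upstream of ERK, by 0.84 (limma adjusted p = 0.0273). TAB1 was not called with normexp (-0.20, limma adjusted p = 0.0865) or quantile normalization (0.0556), and MAP3K8 was -0.52 with normexp and called. On leaving out miR-1225-3p replicate 5, these genes gave 0.66 for IRAK2 and -1.33, -1.33 and -0.96 for TAB1, PELI2 and MAP3K8. MAP3K7, the gene of TAK1 itself, gave -0.26 (limma adjusted p = 0.485), and its partners TAB2 and TAB3 gave 0.29 (0.256) and 0.38 (0.0740), with other kept probes at -0.30 and -1.03, so that none of these 3 was called.

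Of 11 tested genes of the IKK and NF-κB group, 3 rose and 4 fell (63.6% called, beside 35.0% of all genes, median log2 fold change -0.46). CHUK, the kinase IKKα, rose by 0.71 on the log2 scale (SE 0.154, limma adjusted p = 0.0149), RELB, a subunit of the alternative pathway, by 0.52 (0.0281), and BCL3, a nuclear cofactor of p50, by 0.37 (0.0429). RELA, the p65 subunit that pairs with p50, fell by 1.35 (SE 0.381, limma adjusted p = 0.0258), and its log2 signal was 8.59 ± 0.923 against 9.95 ± 0.149 (SD, n = 5 each). Its other kept probe gave -1.46 (limma adjusted p = 0.0512 over all kept probes), and on replicate 5 of miR-1225-3p RELA was 9.92, within the scrambled range of 9.75 to 10.11. NFKBIZ, a nuclear IκB, fell by 1.97 (SE 0.440, limma adjusted p = 0.0155) and NFKBIE, a cytoplasmic IκB, by 0.74 (0.0149). With 75th percentile scaling NFKBIE was -0.40 and not called (limma adjusted p = 0.0997), while RELB was 1.09 and BCL3 0.90. BCL3 lost its call with the slide as a block (0.35, limma adjusted p = 0.0646), and NFKBIZ was -1.09 with normexp and called. With the doubted array, miR-1225-3p replicate 5, left out, log2 fold changes were 0.83 for CHUK, 0.57 for RELB, 0.42 for BCL3, -1.69 for RELA, -2.40 for NFKBIZ and -0.82 for NFKBIE. NFKB1 and RELA, whose products form the main NF-κB dimer, were thus called in opposite directions. NFKB2 had no matched probe here.

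Of 6 negative regulators tested, 1 rose and 4 fell (83.3% called, beside 35.0% of all genes, median log2 fold change -0.53). OTULIN, which removes linear ubiquitin chains, rose by 0.86 on the log2 scale (limma adjusted p = 0.0478), a call lost with the slide as a block (0.82, 0.0722) and with normexp (0.50, 0.0817). TNIP2 fell by 1.86 (limma adjusted p = 0.0348, above background on 3 arrays with miR-1225-3p), ZC3H12A, an RNase that degrades cytokine mRNAs, by 1.11 (SE 0.238, 0.0148), and TNIP1, a partner of A20, by 0.69 (0.0190). TNFAIP3, the gene of A20, was lower by the smallest margin, -0.36 (limma adjusted p = 0.0360), and was the gene whose sign turned with the 75th percentile scaling. TNFAIP3 was not called with quantile normalization (-0.24, limma adjusted p = 0.118) either. TNIP1 lost its call with the 75th percentile as well, at -0.18. TNIP2 lost its call with the slide as a block (-1.85, limma adjusted p = 0.0509) and with normexp (-0.79, 0.0669), and ZC3H12A was -0.67 with normexp and called. Over the other 9 arrays, leaving out miR-1225-3p replicate 5, the values were 1.05 for OTULIN, -2.39 for TNIP2, -1.28 for ZC3H12A, -0.83 for TNIP1 and -0.37 for TNFAIP3.

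Of 19 NF-κB target genes tested, 6 rose and 4 fell (52.6% called, beside 35.0% of all genes, median log2 fold change 0.38). The chemokine genes CCL20 and CCL4 rose by 0.87 (limma adjusted p = 0.0316) and 0.77 (0.0153) on the log2 scale, and IL6 by 0.66 (0.0219). CCL20 was dim, above background on 3 scrambled arrays, and with normexp it was 0.33 and not called (limma adjusted p = 0.0502), while CCL4 and IL6 were both 1.17 with 75th percentile scaling. The log2 signal of IL6 was 12.22 ± 0.308 on the miR-1225-3p arrays and 11.57 ± 0.194 on the scrambled arrays (SD, n = 5 each). In the other direction the chemokine gene CCL2 fell by 1.21 (limma adjusted p = 0.0236), and the cytokine genes IL1B and IL1A by 1.03 (0.0179) and by 0.99 (0.0151). IL1A was dim, above background on 3 arrays with miR-1225-3p, and was -0.32 with normexp (limma adjusted p = 0.0289), and IL1B lost its call with 75th percentile scaling (-0.52, limma adjusted p = 0.210). CCL2 was -0.81 with that scaling and called. CCL5 had a log2 fold change of -0.93 (limma adjusted p = 0.0242), and -1.09 without miR-1225-3p replicate 5. It was well above background on 3 scrambled arrays and on no miR-1225-3p array. CCL5 thus passed the filter only through the scrambled arrays, where it was higher, which limits this call. With normexp it was -0.17 and not called (limma adjusted p = 0.0797). Leaving out miR-1225-3p replicate 5 gave log2 fold changes of 1.05 for CCL20, 0.86 for CCL4, 0.79 for IL6, -1.40 for CCL2, -1.01 for IL1B and -1.09 for IL1A. TNF, a prototype target, was not well above background on any array. The called target genes thus held both directions.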

How the data were processed

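The authors deposited, per array, the scanner output of Agilent Feature Extraction (version 10.7.3.1 per the labels, which differs from the methods), whose processed signal, an intensity, has its background already subtracted. They also deposited normalized log2 values of 29271 probes. No sequence of a 3′ UTR was used here.

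Control spots and outlier flags were left out, cyclic loess (limma 3.58.1, R 4.3.3, 3 iterations) was applied to log2 signals as the methods state, and spots of a probe were averaged. A gene took its kept probe with the highest mean. Groups were compared with limma (lmFit, eBayes) over 17379 genes with Benjamini-Hochberg adjustment at 0.05, and single members with an exact permutation test. The fitting code was tested on simulated data.

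The members and lists were chosen with earlier results of these data known, and the motif search and its counts after the changes were seen. Named were the members, per role up to 3 called genes of largest rise and fall, 12 preset pathway genes, the 3 genes most like MYD88, and the control gene GUSB. CCL5 was added for its limit of detection. GUSB had a log2 fold change of 0.47 (limma adjusted p = 0.103). It was called with 75th percentile scaling (0.98, limma adjusted p = 0.0274) and without miR-1225-3p replicate 5 (0.56, 0.0424). GUSB was not called with quantile normalization (0.51, 0.108) or normexp (0.40, 0.117).

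Replicates are labelled as biological replicates. In all 25 alternatives covered normalization, background, dim probes, flagged spots, probe choice, the deposited log2 values, the methods' unpaired test, array weights, slide, replicate number and each array left out. Same-numbered arrays of the 2 groups correlated between -0.401 and 0.0723 in their deviations, so that the numbers do not pair them.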

Additional observations from a re-analysis of the deposited data

Results flagged for a closer look

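TRAF6 on miR-1225-3p replicate 5, at a normalized log2 signal of 7.76, stood apart from the other 4 miR-1225-3p arrays, the nearest of which was 8.46. The gap was 0.743 of the range of the group, above Dixon's critical value of 0.71 for 5 arrays. It was the 1 case among 16 groups of arrays examined, the members tested in each group, where chance flags about 1 in 20, or 0.8 here. The value remained above all scrambled arrays, and without this array the log2 fold change of TRAF6 was 1.07 (limma adjusted p = 9.96e-05).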

How the results depend on the processing

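In the reported fit limma called 6091 genes (35.0%), 5 members and 30 pathway genes. Without normalization between arrays the counts were 1266 (7.28%), 0 and 1, and with array weights 12041 (69.3%), 8 and 53. Without the filter on dim probes they were 3411 of 35267 genes (9.67%), 4 of 10 members and 16 of 76 pathway genes. Within slide 1, 17 pathway genes were called, in a fit that called 25.9% of all genes. Within slide 2 no gene, member or pathway gene was (0, with 1220, 0 and 6 at an unadjusted p under 0.05). The fit with the replicate number as a block, although the numbers do not pair the arrays, called 0 genes, 0 members and 0 pathway genes, with 7474, 5 and 36 at an unadjusted p under 0.05. Leaving out 1 array gave 2129 to 9624 genes (12.3% to 55.4%), 1 to 7 members and 9 to 42 pathway genes. The counts were lowest without miR-1225-3p replicates 2 and 3 and highest without replicate 5. Without any 1 of miR-1225-3p replicate 4 and scrambled replicates 1 to 4, between 3077 and 3520 genes (17.7% to 20.3%), 2 to 3 members and 12 to 17 pathway genes were called. Without miR-1225-3p replicate 1, 19 pathway genes were, in a fit that called 24.4% of all genes. In the methods' t-test 4677 genes were called after Benjamini-Hochberg adjustment and 8284 before it. Of all genes called, 51.6% were lower in the reported fit, 36.2% after 75th percentile scaling, 40.9% after quantile normalization and 86.3% after none, and the median over all genes was -0.06, 0.16, 0.08 and -0.26.

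MYD88, IRAK1, TRAF6, TLR2, NFKB1 and NFKBIA kept their direction in every alternative that tested them. IRAK4 turned to 0.17 with quantile normalization, 0.057 with the deposited values, 0.0039 with the slide as a block and 0.014 within slide 1, and ran from -0.20 to 0.20 when 1 array was left out. TOLLIP turned to -0.017 when its kept probes were averaged. The cause of these changes was not tested. Signals of MYD88, TLR2, IRAK4, TAB1 and TNIP2 near background limit the size of their changes, and 5 arrays per group limit all calls.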
